A study of Rattus norvegicus with 4 samples.

Results

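The genes described here are the DNA replication machinery of rat alveolar macrophages of the permanent line NR8383 exposed to carbon black Printex 90, a nanoparticle powder. The members are 40 genes chosen by function, not by their values: those that license origins, build and drive the fork and supply nucleotides. Of these, 38 were matched to at least 1 array probe through a RefSeq accession, with 50 probes in all, out of 16581 named genes and 39506 genes and unnamed transcripts on the array. Mcm5, a subunit of the replicative helicase, and Rpa1, the largest subunit of the single-strand binding protein, were not matched to a probe.

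All 4 samples belonged to 1 group, cells of 20 passages kept with particles for 4 h at a dose given in the labels as 0.9 cm²/cm². Each sample was a biological replicate on its own 1-colour Agilent array, and cells incubated without particles were not analysed here. No effect of carbon black was therefore computed, and every value below is a level in exposed cells or a spread between replicates. A level is the log2 of a probe's processed intensity after subtraction of the 75th percentile of its array, so that 0 stands for that percentile, and errors are SD over n = 4 arrays. Probes differ in how strongly they bind, so the level of a gene cannot be set against that of another.

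Replication begins at origins that the origin recognition complex marks. Cdc6 and Cdt1 then load the ring-shaped Mcm2 to Mcm7 helicase, and in S phase the kinase Cdc7, Mcm10, Cdc45 and the GINS complex convert it into the active fork helicase. Polymerase alpha with primase starts each strand, the clamp loader Rfc places the sliding clamp Pcna, polymerases delta and epsilon extend the strands, and Fen1 and Lig1 join the lagging strand fragments. Most mature alveolar macrophages rest outside the cell cycle, whereas NR8383 is a line that divides in culture.

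The cells carried the markers of their label. All 8 macrophage markers examined, among them Cd68, Spi1 and Csf1r, were marked well above background on every array, while the 4 epithelial, 3 fibroblast, 2 lymphocyte and 2 granulocyte markers had no such mark on any array. Of 3 endothelial markers, Pecam1 had the mark on every array, Cdh5 on 2 arrays and Kdr on none. Between 37.5% and 40.9% of probes were marked on an array and no spot was saturated. All 6 outside markers of dividing cells (Mki67, Ccnb1, Cdk1, Aurkb, Plk1 and Ccna2) were marked on every array too.

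Replication transcripts were detected almost throughout. Of the 38 measured members, 36 were marked well above background on all 4 arrays and 2 on some arrays, and no member lacked the mark altogether. Among all named genes, 48.0% were marked on all 4 arrays. Orc6 lacked the mark on replicate 1, and Pola1 lacked it on replicates 1 and 4. The lowest intensity that carried the mark was 22.3 on replicate 1 and 10.8 to 12.1 on the other arrays. On replicate 1 that is below the 99th percentile among negative controls, 27.1, and Pole2 carried the mark there at an intensity of 26.2, within the range of those controls. No other marked member lay below that percentile on any array. For 24 of the 38 the intensity was at least 10 times the lowest marked intensity of the array on every array (63.2%), against 51.4% of all tested genes. RNA came from whole cultures, in which fewer cells in S phase and less RNA per cell cannot be told apart.

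**Figure D1:**
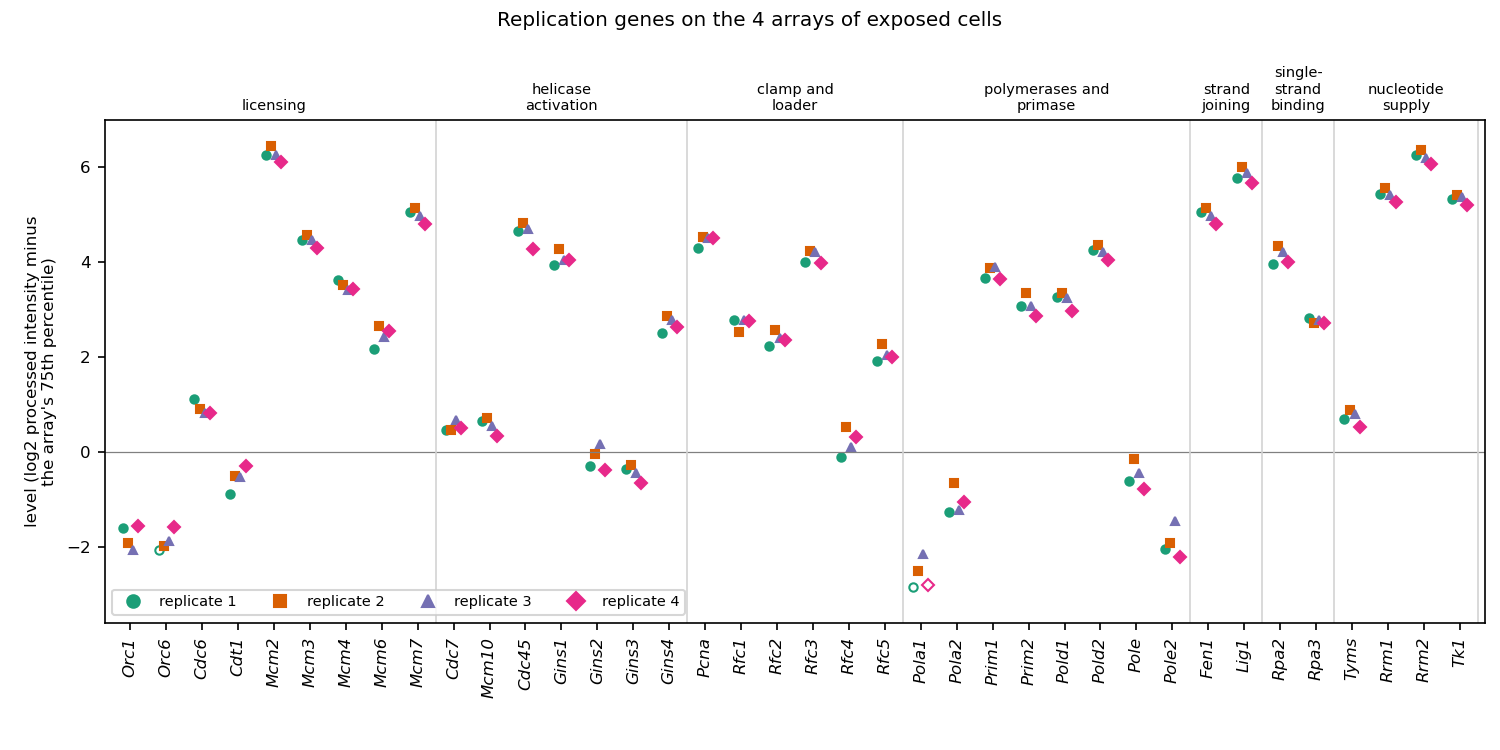
Level of each of the 38 measured replication genes (log2 processed intensity minus the array's 75th percentile, y axis) on the 4 arrays, with genes on the x axis grouped by role. Filled symbols are marked well above background and open symbols are not, which concerns Orc6 on replicate 1 and Pola1 on replicates 1 and 4. The 4 symbols of a gene lie close together, and heights of different genes cannot be compared.

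The promoters of these genes were searched for sequence motifs, which were not used to choose the genes. E2F factors, the transcription factors that switch on S phase genes when the RB protein is inactivated, are known to bind motifs of the kind TTTCGCGC, TTTGGCGC and TTTCCCGC. These motifs were searched on both strands in windows of 250 bases before to 50 bases after the gene start, taken from RefSeq (build GRCr8), which held 34 of the 40 members. The members absent from that table were Orc1, Cdc6, Mcm4, Gins4, Rpa3 and Rrm2. At least 1 of the motifs lay in 14 of the 34 windows (41.2%), against 1.82% of 27457 windows in the table with 1 window a gene and 3.87% of the 7110 named genes whose spread was tested. The 14 were Mcm2, Mcm3, Mcm5, Mcm6, Mcm7, Cdt1, Gins1, Gins3, Rfc3, Pola1, Pole, Pole2, Lig1 and Tyms. All 5 genes of the Mcm2 to Mcm7 helicase that the table held were among them.

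CpG content was close between the members and the tested genes, with a median of 22.5 CG dinucleotides per window against 21, and 7 over the whole table. CCAAT boxes, the motif of the factor NF-Y, lay in 21 of 34 members' windows (61.8%), against 37.7% of all windows and 38.9% of the tested genes. They also lay in 4 of 6 macrophage marker windows and in 4 of 4 windows of dividing cell markers, but in 14 of 36 windows of other replication genes (38.9%). A match describes letters in a window and is not a bound site. The stretches below were chosen to show how the motifs are arranged in genes of licensing, helicase activation and nucleotide supply, with the polymerase delta gene Pold2 as a case with CCAAT boxes only. Each runs 5′ to 3′ on the gene's strand, with E2F-type motifs and CCAAT boxes of either strand (the latter reading ATTGG on the reverse strand) in capitals. They lie at chr4:122918095-122918214 (Mcm2, minus strand), chr13:42404413-42404532 (Mcm6, minus), chr12:22163179-22163298 (Mcm7, minus), chr3:160184800-160184919 (Gins1, plus), chr9:120776084-120776203 (Tyms, minus) and chr14:84969097-84969216 (Pold2, minus).
Mcm2: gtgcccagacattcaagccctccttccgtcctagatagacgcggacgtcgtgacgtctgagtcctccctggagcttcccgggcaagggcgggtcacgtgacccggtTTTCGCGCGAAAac
Mcm6: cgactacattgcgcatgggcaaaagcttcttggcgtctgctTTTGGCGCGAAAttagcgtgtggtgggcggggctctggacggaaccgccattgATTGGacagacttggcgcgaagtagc
Mcm7: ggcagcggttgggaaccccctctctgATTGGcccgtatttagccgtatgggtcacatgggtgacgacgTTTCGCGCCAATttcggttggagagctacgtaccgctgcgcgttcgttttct
Gins1: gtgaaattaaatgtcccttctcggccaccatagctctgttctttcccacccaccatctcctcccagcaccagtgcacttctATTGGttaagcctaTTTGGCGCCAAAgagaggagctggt
Tyms: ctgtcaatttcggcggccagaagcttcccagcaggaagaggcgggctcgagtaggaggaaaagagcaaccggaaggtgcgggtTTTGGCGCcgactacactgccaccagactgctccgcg
Pold2: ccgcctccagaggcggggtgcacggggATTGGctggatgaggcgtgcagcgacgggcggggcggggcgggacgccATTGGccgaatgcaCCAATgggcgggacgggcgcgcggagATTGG

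In Mcm2, Mcm6 and Gins1 the motif reads as a match on both strands, so that a pair of overlapping matches fills a single run of capitals. In Mcm2 these matches spanned positions -14 to -7 and -10 to -3 before the start. In Mcm7 the E2F-type motif, at -52 to -45, shared its last base with a CCAAT box at -45 to -41. The 13 measured members with an E2F-type motif had a median SD between arrays of 0.155 (0.11 to 0.33). The 19 without had 0.156 (0.093 to 0.28). Whether spread differed with the motif was not tested.

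**Figure D2:**
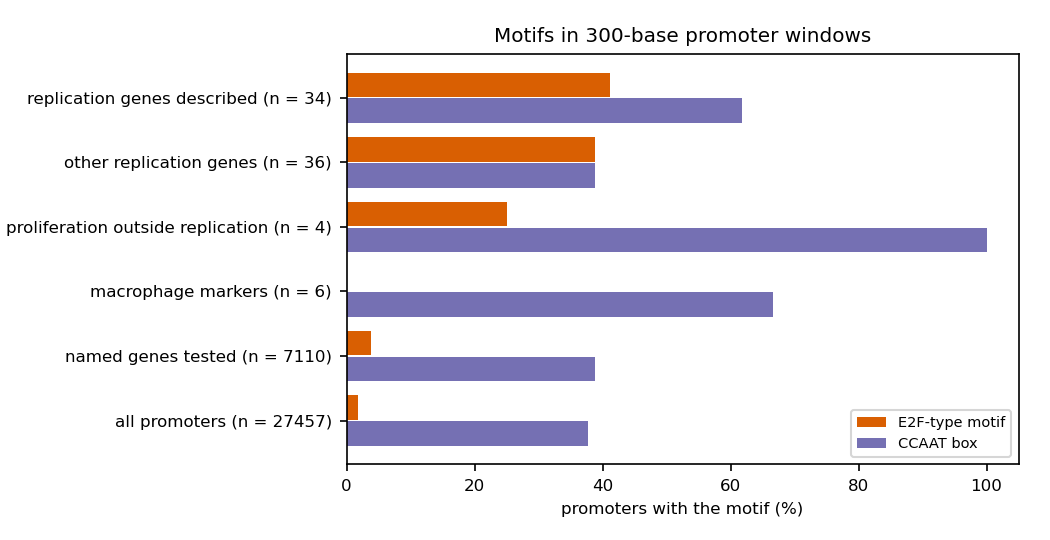
Share of promoter windows (x axis, percent) that hold an E2F-type motif or a CCAAT box, for gene lists on the y axis with their number of windows. The E2F-type share is 41.2% for the replication genes described and 38.9% for other replication genes, against 3.87% for named genes tested and 1.82% for all windows, and 0 of 6 macrophage marker windows hold the motif.

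Licensing transcripts were all measured apart from Mcm5, with SDs between replicates of 0.094 to 0.24. The narrowest of the group was Mcm4, a helicase subunit, with levels of 3.63, 3.51, 3.42 and 3.44 on replicates 1 to 4 (SD 0.094). The widest was Orc1, the largest subunit of the origin recognition complex, with -1.61, -1.92, -2.06 and -1.56 (SD 0.24). Orc6, the smallest subunit of that complex, had -2.07, -1.99, -1.88 and -1.58 (SD 0.21), of which the value on replicate 1 is only a bound. Both origin recognition genes were highest on replicate 4, and their intensities were only 1.2 to 2.2 times the lowest marked intensity of the array.

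The loading and helicase genes lay within that range of SD. Cdc6 and Cdt1, the loading factors, had levels of 0.92 ± 0.14 and -0.56 ± 0.24. The helicase genes Mcm3, Mcm6 and Mcm7 had levels of 4.45 ± 0.11, 2.44 ± 0.21 and 4.99 ± 0.14. Mcm2, shown here after its values were seen because it was measured with 10 spots per array, had levels of 6.26, 6.45, 6.27 and 6.10 (SD 0.14). On this probe it was highest on replicate 2 and lowest on replicate 4, and its intensity was 363 to 725 times the lowest marked intensity. A second probe of Mcm2 was lowest on replicate 1.

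Genes that turn the loaded helicase into a moving fork were marked on every array, all 7 of them. Cdc7, the kinase that fires origins by phosphorylating Mcm proteins, had levels of 0.47, 0.47, 0.67 and 0.50 (SD 0.096), with replicate 3 above the other replicates. Gins2, a subunit of the GINS complex, was the widest of the group with -0.31, -0.049, 0.16 and -0.37 (SD 0.25). Cdc45, the helicase cofactor that limits how many origins fire, is added after its values were seen, with 4.66, 4.83, 4.70 and 4.27 (SD 0.24). Its replicate 4 was lowest, and its unadjusted p in the limma test of spread given further on was the smallest of all members. Mcm10, a helicase activator, and Gins1, Gins3 and Gins4 had levels of 0.57 ± 0.16, 4.08 ± 0.14, -0.44 ± 0.16 and 2.70 ± 0.16.

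The sliding clamp and its loader were likewise all marked on every array. Pcna, the clamp that tethers polymerases to DNA, had levels of 4.31, 4.53, 4.51 and 4.51 (SD 0.11), with replicate 1 below the others. Rfc1, the large subunit of the clamp loader, had 2.79, 2.53, 2.78 and 2.76 (SD 0.12), with replicate 2 below the others. Rfc4, a small subunit, was the widest of the group with -0.11, 0.52, 0.11 and 0.31 (SD 0.27), lowest on replicate 1. The other small subunit genes Rfc2, Rfc3 and Rfc5 had SDs between 0.13 and 0.16, and all 3 were highest on replicate 2.

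Polymerase genes held the widest spreads of the machinery. Pole2, an accessory subunit of the leading strand polymerase epsilon, had levels of -2.06, -1.92, -1.46 and -2.23 (SD 0.33). Pola1, the catalytic subunit of polymerase alpha, had -2.85, -2.51, -2.16 and -2.81 (SD 0.32), with only bounds on replicates 1 and 4. Both were highest on replicate 3, and both lay close to background, with intensities 1.1 to 2.2 times and 0.68 to 1.45 times the lowest marked intensity.

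Pola2, the accessory subunit of polymerase alpha, had -1.27, -0.66, -1.22 and -1.06 (SD 0.28). Pole, the catalytic subunit of polymerase epsilon, had -0.62, -0.14, -0.44 and -0.78 (SD 0.27). Both were highest on replicate 2. Pold2, an accessory subunit of the lagging strand polymerase delta, was the narrowest of the group with 4.26, 4.36, 4.22 and 4.05 (SD 0.13). Its catalytic partner Pold1 and the primase genes Prim1 and Prim2 had SDs of 0.16, 0.13 and 0.20. Wide spreads were found mostly among genes with weak signal. The 9 members with a mean level below 0 had a median SD of 0.25 and the 29 above 0 a median of 0.14, against 0.27 and 0.13 for all tested genes split the same way.

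In strand joining, single-strand binding and nucleotide supply every SD was below 0.18 on the probe with the highest mean. Lig1, the ligase that seals lagging strand fragments, had levels of 5.77, 6.01, 5.88 and 5.68 (SD 0.14). Fen1, the nuclease that trims their flaps, had 5.06, 5.13, 4.98 and 4.80 (SD 0.14). On these probes both were highest on replicate 2 and lowest on replicate 4, while a second probe of Lig1 was lowest on replicate 1. Rpa2, a subunit that coats single strands, had 3.97, 4.34, 4.22 and 4.01 (SD 0.17). Its smaller partner Rpa3 had 2.81, 2.72, 2.78 and 2.72 (SD 0.049), the smallest SD of all members on these probes. A second probe of Rpa3, also marked on every array, had 1.92, 1.56, 1.48 and 1.43 (SD 0.22), so this rank depends on the probe.

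On the probes with the highest mean, the enzymes that make deoxynucleotides were highest and lowest on the same arrays as Fen1 and Lig1. Tyms, which makes thymidylate, had levels of 0.70, 0.87, 0.80 and 0.51 (SD 0.16). Tk1, the thymidine kinase of S phase, had 5.33, 5.43, 5.37 and 5.21 (SD 0.093). Rrm2, the S phase subunit of ribonucleotide reductase, is added after its values were seen, with 6.27, 6.38, 6.21 and 6.06 (SD 0.13). The other subunit gene, Rrm1, had a level of 5.43 ± 0.12. On the described probes the 4 genes of the group were all highest on replicate 2 and lowest on replicate 4. Second probes, also marked on every array, were lowest on replicate 1 for Tk1, on replicate 3 for Rrm2 and on replicate 4 for Rrm1.

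No replication gene was called as more variable between replicates than genes of like brightness. Of 38 tested members, 0 passed the variance test (limma, Benjamini-Hochberg adjusted p under 0.05), and 0 had an unadjusted p under 0.05. Over all 14911 tested genes 71 passed, which is 0.476%, so that a count of 0 among 38 lies near the background. Adjusted p-values of the members lay between 0.987 and 0.993. The median SD of the members was 0.149 log2 units, from 0.049 for the described probe of Rpa3 to 0.33 for Pole2, against 0.161 for all tested genes. Between its highest and lowest array a member changed by 1.07-fold to 1.70-fold, and 23 of the 38 had an SD under the median of all tested genes.

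**Figure D3:**
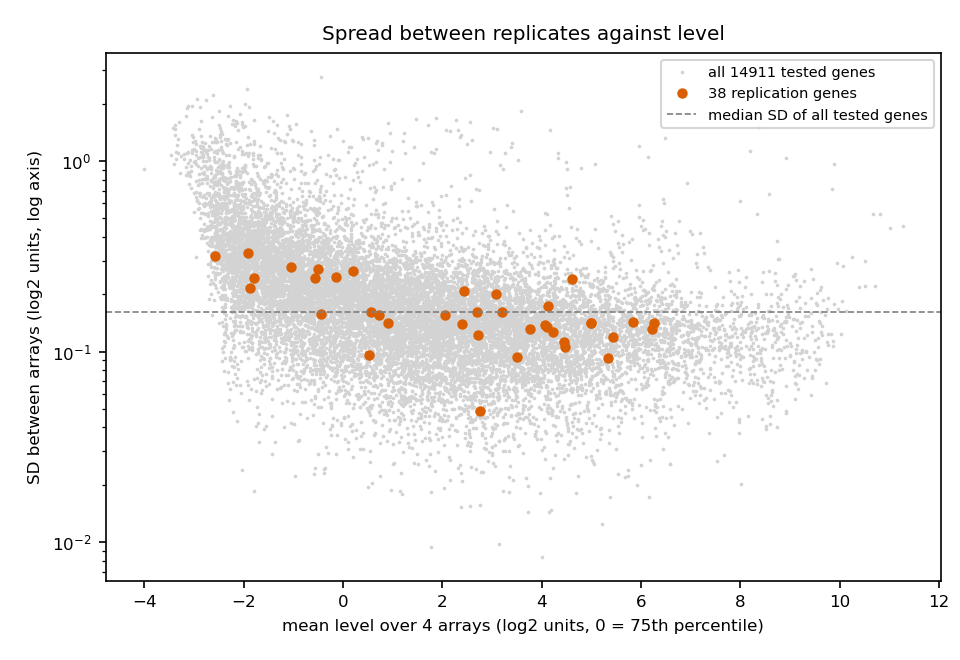
SD between the 4 arrays (y axis, log2 units on a log axis) against mean level (x axis, log2 units with 0 at the array's 75th percentile) for all 14911 tested genes in grey and the 38 replication genes in orange. The replication genes lie inside the grey cloud on both sides of the dashed median of 0.161, with SDs from 0.049 to 0.33.

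Repeated spots gave the error within an array for 7 members, each printed 10 times. The mean SD between the 10 spots was 0.061 for Mcm2, 0.062 for Rrm1, 0.085 for Rrm2, 0.10 for Fen1, 0.11 for Lig1, 0.12 for Mcm7 and 0.18 for Mcm3. The SD between arrays of these genes lay between 0.11 and 0.14. The spot values are errors of a single spot, whereas each level is a mean over 10 spots, so they are not on the same footing.

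The small differences that remained ran in a shared direction across many members. Of the 38, 26 were highest on replicate 2 (68.4%), against 38.6% of all tested genes, and 21 were lowest on replicate 4 (55.3%), against 32.5%. These shares depended on brightness. Of the 29 members with a mean level above 0, 23 were highest on replicate 2 and 17 lowest on replicate 4. Tested genes above 0 gave 46.4% and 35.9%. Of the 9 members below 0 the counts were 3 and 4, where tested genes below 0 gave 23.2% and 25.8%. On replicate 1, 13 members were lowest (34.2%), close to the 39.4% of all tested genes. Only 3 members were highest on replicate 4 (7.89%, against 20.3%) and 3 lowest on replicate 3 (7.89%, against 14.7%). Being highest on replicate 2 and lowest on replicate 4 at once held for 17 members (44.7%) and for 16.0% of all tested genes. Measured from each gene's own mean, the members had median deviations of -0.041, 0.14, 0.011 and -0.12 on replicates 1 to 4, and all tested genes had -0.045, 0.069, 0.015 and -0.024. Under 4 other scalings 13 to 16 members were highest on replicate 2, against 18.3% to 25.2% of all tested genes. A single array stood apart from the other 3 in 3 members (7.89%), against 5.83% of all tested genes. These arrays were singled out after the values were seen, the genes are not independent of each other, and no test was made.

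**Figure D4:**
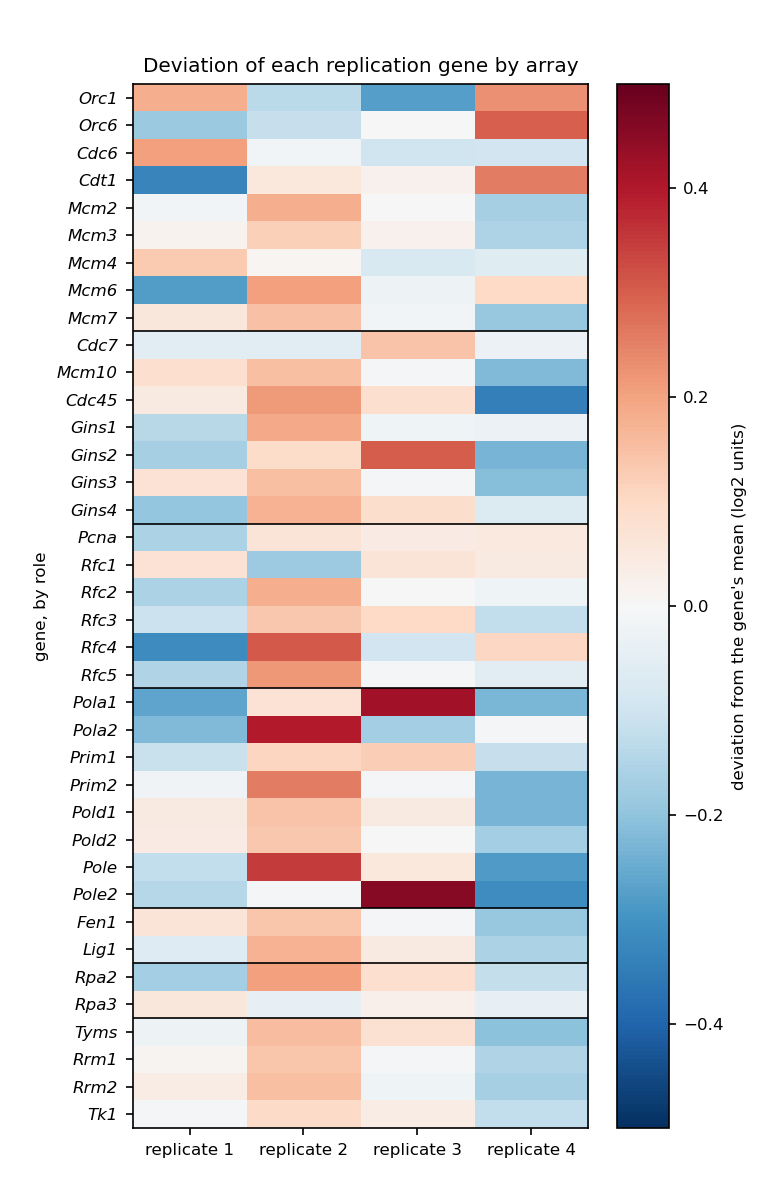
Deviation of each of the 38 replication genes (y axis, grouped by role) from its own mean on each array (x axis), in log2 units on a colour scale. The column of replicate 2 is mostly red, with a median of 0.14, and that of replicate 4 mostly blue, with a median of -0.12. On replicate 4 Orc1, Orc6 and Cdt1 are the reddest, and Mcm6, Pcna, Rfc1 and Rfc4 are faintly red.

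The difference between replicate 4 and replicate 2 was below 0 for 33 of the 38 members (86.8%), with a median of -0.28, and for 63.6% of all tested genes, with a median of -0.089. The exceptions were Orc1, Orc6, Cdt1, Cdc7 and Rfc1, with differences between 0.025 and 0.41. The largest, 0.36 for Orc1 and 0.41 for Orc6, came from intensities only 1.2 to 2.2 times the lowest marked intensity. With dim probes kept, the median difference over all genes was 0.36. Pole2 and Pola1, also close to background, had differences of -0.31 and -0.30. The part of weak signal in these differences was not tested. Polymerases and primase were lower on replicate 4 for 8 of 8 genes and nucleotide supply for 4 of 4, with medians of -0.34 and -0.30. Over 9 ways of processing these counts lay at 7 to 8 and at 4, and no group median other than that of licensing turned positive. Licensing was divided, with 6 of 9 genes lower on replicate 4 and a median of -0.081, and over the same settings its count lay between 3 and 6 and its median between -0.23 and 0.042.

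The size of the difference depended on the scaling, its direction did not in the settings tried. With the 75th percentile taken over detected probes the members' median was -0.16 and that of all tested genes 0.034, a shift of over 0.1 in the reference itself. After cyclic loess, which removes trends with brightness, these medians were -0.17 and 1.4e-05. Cyclic loess fits the arrays to each other over all probes, so the median of all tested genes is brought near 0 by the method itself. Relative to all tested genes the members' median was lower by between 0.12 and 0.19 log2 units in the 8 settings that kept a filter on dim probes. The median SD of a single member between arrays, 0.149, is of similar size but does not measure the error of a median over 38 genes. The response of the spike-in controls was flattest on replicate 4, with a slope of 0.869 against 0.881 to 0.887 on the other arrays. Each of the 4 slopes fell outside the software's accepted limits, and their part in the difference was not tested.

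**Figure D5:**
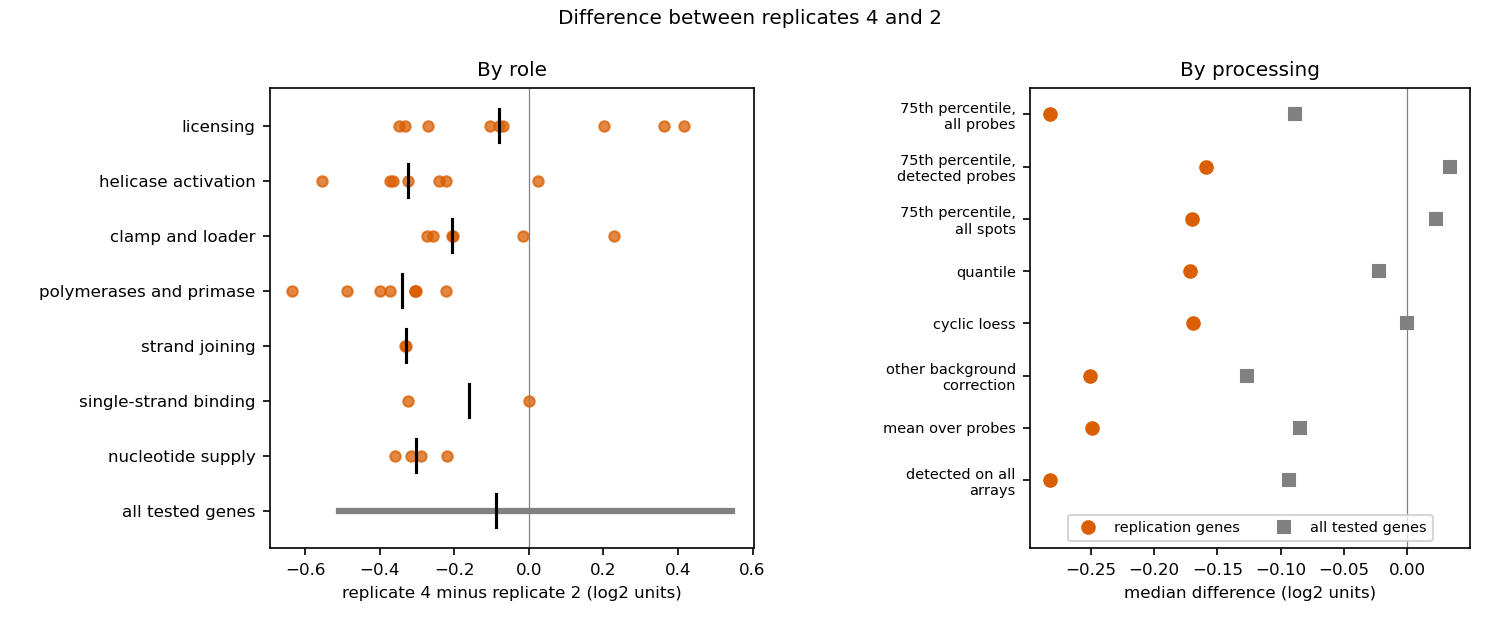
Left, replicate 4 minus replicate 2 (x axis, log2 units) for each replication gene by role, with black lines at medians and, for all tested genes, a grey bar from the 5th to the 95th percentile. Right, the median of the same difference for the 38 replication genes (36 where detection on all arrays was required) and for all tested genes under 8 ways of processing; the replication genes lie below all tested genes in each.

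Other genes of the pathway were then examined from a list of 42 that holds no member. Of 34 with a probe, 28 were marked on every array, 4 on a few arrays and 2 nowhere. The helicase paralogue gene Mcm9 and the polymerase epsilon subunit gene Pole4 had no mark on any array. Orc5 and Rrm2b, the p53-induced alternative to Rrm2, had it on 1 array each, Dck, a deoxynucleoside salvage kinase, on 2 and Top1, the topoisomerase that relieves twist ahead of the fork, on 3.

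Of 30 tested genes of that list 0 passed the variance test. An unadjusted p under 0.05 (limma) was found for 1, against 5.06% of all tested genes. It was Chtf8, a subunit of an alternative clamp loader, with an adjusted p of 0.739. The widest were Orc2 with levels of -1.32, -1.09, -1.45 and -0.42 (SD 0.46), Top1 with -1.67, -2.46, -1.96 and -2.48 (SD 0.40), and Wdhd1, a fork scaffold protein, with -1.20, -1.85, -1.63 and -2.05 (SD 0.37). Replicate 4 was below replicate 2 for 22 of the 30, against 63.6% of all tested genes, with a median difference of -0.16. Over the 9 settings this count lay between 17 and 24 and the median between -0.21 and -0.033. The 8 macrophage markers had a median difference of 0.041, with 4 of 8 lower on replicate 4, although that median lay between -0.13 and 0.16 over the 9 settings. The 6 markers of dividing cells had a median of -0.22, between -0.44 and -0.096 over the settings. Of the other cell type markers, Pecam1 was lower on replicate 4 than on replicate 2 with a difference of -0.70 log2 units, and Cdh5 with -0.40, and their part in the result was not tested. The lists were not tested against each other.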

How the data were processed

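The deposited files hold intensity per spot on a linear scale from Agilent Feature Extraction 11.0.1.1, background-subtracted and detrended within an array but not between arrays, per the file headers. The log2 intensity of a probe was the mean of its spots without control and non-uniform spots, scaled by the array's 75th percentile over 45598 probes. Detection was the software's mark for signal well above background on at least 50% of a probe's spots, for any probe of a gene. The probe with the highest mean stood for its gene. Names came from a RefSeq table (assembly GRCr8), which named 46.3% of probes.

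The 14911 genes marked on at least 2 arrays entered an intercept fit in limma 3.58.1 (R 4.3.3), and each residual variance was set against a squeezeVar prior with a trend on level (one-sided F test, Benjamini-Hochberg adjusted, threshold 0.05). Checked on simulated data, this test had low power with 4 arrays. Arrays correlated at 0.981 to 0.993 in 6 pairs, were not duplicates and shared 1 slide.

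The members, lists and tests were chosen with earlier results of these data known. Array values are given for members with the widest or narrowest SD of a role, the 5 largest SDs, a mark on some arrays only, or 1 array apart. Alternatives changed the scaling, background, probe and detection rules, filter and prior, or left out an array. The precision of each SD is limited by the number of arrays.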

Additional observations from a re-analysis of the deposited data

Results flagged for a closer look

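In 3 of the 38 tested members a single array stood apart, meaning that the gap to the nearest other array made up more of the gene's range than the 95% critical value for 4 samples allows. Chance flags about 1 group in 20, and 5.83% of all tested genes were apart by this measure against 7.89% of the members. Pcna was lowest on replicate 1, at 4.31 against 4.51 to 4.53 elsewhere, with a gap of 0.895 of its range. Rfc1 was lowest on replicate 2, at 2.53 against 2.76 to 2.79, with 0.894. Cdc7 was highest on replicate 3, at 0.67 against 0.47 to 0.50, with 0.86. Among 46 other tested genes of the lists 2 were apart. Mcm8, a helicase paralogue, was at -0.51 on replicate 4 against -0.023 to 0.014, with a gap of 0.929. Donson, a replication fork protein, was at 1.05 on replicate 2 against 0.81 to 0.83, with 0.911.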

How the results depend on the processing

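The count of 0 members past the variance test held in all 14 alternatives, with adjusted p of at least 0.59 for each member tested under it (36 where the mark was required on all arrays, 37 without replicate 2 or without replicate 3, otherwise 38). Because the test had low power with 4 arrays, a repeated 0 shows little about the spread of the members. At an unadjusted p under 0.05 the count of members was 1 with dim probes kept, against 2819 of 39498 tested genes. Without replicate 1 it was also 1, against 737 of 14765 tested genes. The count over all genes, 71, was far less stable: 0 with the 75th percentile over detected probes, 1 with that over all spots, 1 with quantile normalization, 1 with cyclic loess, 235 with normexp on spot medians (chosen after seeing the data), 207 when the prior was made robust, 0 when its trend was dropped, 357 with dim probes kept, and 27 to 161 when each replicate was left out. The number of members highest on replicate 2, 26, was 13 with the percentile over detected probes, 16 with that over all spots, 15 with quantile normalization and 14 with cyclic loess, where all tested genes gave 18.3%, 21.3%, 25.2% and 21.0%. The number lowest on replicate 4 stayed between 18 and 27, where all tested genes gave 16.3% to 48.1%. The 27 came from the setting without replicate 1, in which 48.1% of all tested genes were lowest on replicate 4. The median SD of the members lay between 0.114 and 0.187, and the median deviation lay between -0.15 and -0.079 on replicate 4 and between 0.063 and 0.19 on replicate 2. On replicate 1 it lay between -0.10 and 0.036 and so had no settled sign. The number marked on all arrays lay between 34 and 38. Why these counts moved was not tested. No paired analysis was possible because the samples form a single group. Normexp on spot means was not run.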

Other observations

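Of the members, 10 had more than 1 probe, with 12 further probes besides those described. Of these, 9 were marked on all arrays, and 7 of the 9 had a lower level on replicate 4 than on replicate 2, against 63.6% of all tested genes. The second probes of Mcm2, Lig1, Rrm1, Rrm2 and Tk1 were highest on replicate 2, as were the first probes of these genes. That is 5 of the 9, against 38.6% of all tested genes. Only 3 of the 9 were lowest on replicate 4, namely further probes of Mcm4, Rpa3 and Rrm1. This share lies close to the 32.5% of all tested genes, so the further probes did not repeat the raised share of the first probes. The second probes of Mcm2, Lig1 and Tk1 were lowest on replicate 1 and that of Rrm2 on replicate 3. The first probes of these genes were all lowest on replicate 4. The second probe of Rrm1 had an SD of 0.074 and that of Rrm2 an SD of 0.043. Those of Tk1 and Rpa3 were wider, with 0.28 and 0.22 against 0.093 and 0.049 for the first probes. The second probe of Mcm3 went the other way, with levels of -1.83, -1.18, -1.74 and -0.89 on replicates 1 to 4 (SD 0.45), highest on replicate 4. The third probe of Mcm4 was highest there too, with 0.75, 0.50, 1.04 and 1.07. The 3 further probes that lacked the mark on some or all arrays belonged to Gins2 and Pole.

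The 6 markers of dividing cells outside replication had SDs of 0.066 to 0.16. Cdk1, the mitotic kinase, had levels of 5.99, 6.31, 6.19 and 6.06, and its partner Ccnb1 had 3.76, 4.05, 3.93 and 3.80. Mki67, a marker of cycling cells, had 4.70, 4.32, 4.52 and 4.51 and was lowest on replicate 2, unlike the other 5 genes of that list, which were highest there. Replicate 4 was below replicate 2 for 5 of the 6, with a median of -0.22.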
